A study of Mus musculus with 6 samples.

Results

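The ribosome biogenesis and nucleolar genes described here are 55 listed mouse genes whose proteins copy, modify, cut and assemble ribosomal RNA. Each gene was read by its probe set, the group of short probes for 1 transcript on the array. Where a gene had several, the one with the highest mean signal over the arrays was used. Of the 55 genes, 47 had a probe set and 46 were bright enough to test, out of 8251 named genes on the array and 5662 named genes tested. Npm3, Dkc1, Noc2l, Nle1, Nob1, Heatr1, Exosc1 and Exosc2 had no probe set named for them alone. Wdr12, a partner of Pes1 and Bop1, was too dim to test, with signals of 23.5 and 32.2 on the estradiol arrays, 17.2 and 2.9 on the withdrawal arrays and 3.8 and 8.8 on the doxycycline arrays.

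The cells were clone 35/1-22 of NIH3T3, an established mouse fibroblast line, grown with fetal calf serum, and every array came from this 1 clone. All groups carried 2 oncogenes, Ha-ras and c-myc, driven by a Tet-off promoter, which doxycycline silences, and all made IRF-1hER, a fusion of the growth-suppressing transcription factor IRF-1 that estradiol activates. There were 3 groups with 2 arrays each: estradiol (doxycycline withdrawn, then 48 h with estradiol, given in the labels as 1 mM), withdrawal (no doxycycline and no estradiol) and doxycycline (2 µg/ml, oncogenes off). Doxycycline replicate 2 has a title that also names estradiol, although its treatment entry lists doxycycline alone.

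Ribosomes are assembled in the nucleolus, where RNA polymerase I copies the ribosomal RNA genes into a long precursor. Small nucleolar ribonucleoproteins, or snoRNPs, guide the chemical modification of this precursor, while helicases, GTPases and assembly factors fold and cut it and load ribosomal proteins onto the large and small subunits. The pathway is known for following growth rate in cultured fibroblasts, and many of its genes are known targets of Myc, which binds the E-box CACGTG with its partner Max.

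Since that E-box is the sequence best known from this gene family, the promoters of the members were searched for it. Promoter sequences came from RefSeq on the build GRCm38.p6, from 250 bases before to 50 bases after each gene's start. The letters CACGTG read the same on both strands, no other motif was searched, and 49 of the 55 genes matched a promoter. Of the 40 tested members with a promoter, 6 held CACGTG (15%), against 2187 of 27025 genes in the table (8.09%) and 12 of 47 other ribosome biogenesis genes (25.5%). The windows of the 6 tested members follow, with the E-box in capitals and up to 12 bases on each side, so that its flanks can be compared.
Imp4: acggtcttagacCACGTGacatcccaaatc
Nop2: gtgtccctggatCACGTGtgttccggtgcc
Pes1: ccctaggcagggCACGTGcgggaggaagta
Mybbp1a: gtcttctgagccCACGTGtttg
Tsr1: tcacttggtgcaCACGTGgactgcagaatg
Wdr43: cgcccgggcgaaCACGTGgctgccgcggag

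All 6 windows lie on the plus strand: chr1:34439696-34439725 for Imp4, chr6:125131811-125131840 for Nop2, chr11:3963965-3963994 for Pes1, chr11:72441355-72441376 for Mybbp1a, chr11:74898092-74898121 for Tsr1 and chr17:71616220-71616249 for Wdr43. The E-box began 121 bases before the start of Imp4 and 60 bases before that of Nop2. In the other 4 it lay after the start, at position 3 for Pes1, 18 for Wdr43, 25 for Tsr1 and 41 for Mybbp1a. As an example of a whole upstream region, the 250 bases before the start of Nop2, which encodes a methyltransferase of large subunit ribosomal RNA, are at chr6:125131633-125131882 on the plus strand.
Nop2 upstream region: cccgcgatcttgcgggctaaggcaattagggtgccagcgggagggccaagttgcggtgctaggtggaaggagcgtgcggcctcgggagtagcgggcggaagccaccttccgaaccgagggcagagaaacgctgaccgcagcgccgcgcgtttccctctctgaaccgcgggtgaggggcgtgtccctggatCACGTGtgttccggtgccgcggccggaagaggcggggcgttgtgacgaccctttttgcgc

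The arrays did not fall cleanly into their groups. Between the first replicates of estradiol and withdrawal, only 16 of 7453 probe sets were 2-fold or more apart, whereas the withdrawal arrays differed from each other in 920, the estradiol arrays in 250 and the doxycycline arrays in 283. The log2 differences between those first replicates had an SD of 0.19, against 0.67 between the withdrawal arrays, 0.46 between the estradiol arrays and 0.51 between the doxycycline arrays. Whether the first replicates of estradiol and withdrawal share RNA or carry a wrong label was not tested, so the medians of both comparisons with the withdrawal group are also given without each of its arrays. Fibroblast markers were bright, with summed signals of 20130 and 15307 on the estradiol arrays, 20074 and 24762 on the withdrawal arrays and 27650 and 26291 on the doxycycline arrays, although Vim, vimentin, read only 5.9 to 40.7. Summed signals of leukocyte markers stayed between 401.7 and 482.5 and those of epithelial markers between 144.6 and 223.1, and those of endothelial markers stayed at or below 84.7. Most of the leukocyte sum came from Cd14 (257 to 379) and Cd68 (70.1 to 132), and most of the epithelial sum from Cdh1 (76.6 to 172). The defining leukocyte marker Ptprc read at most 7.4 and the epithelial Epcam at most 8.1. The actin 3′ to 5′ ratio, a sign of RNA integrity, was 1.14 and 1.16 with estradiol, 1.11 and 1.07 after withdrawal and 1.05 and 1.04 with doxycycline. The same ratio for Gapdh did not follow the groups. It was 0.75 and 0.88 with estradiol, 0.74 and 0.92 after withdrawal and 0.83 and 0.80 with doxycycline. The part of these values in the results below was not tested. Nor was that of the RNA extraction, which by the labels differed between replicate 1 and replicate 2.

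On each array, the level of the members was summarised as the median deviation of log2(signal + 32) from each gene's mean over the 6 arrays. This median was 0.33 and 0.48 on the estradiol arrays, 0.36 and -0.46 on the withdrawal arrays and -0.39 and -0.44 on the doxycycline arrays. Both estradiol arrays and withdrawal replicate 1 were thus high, while withdrawal replicate 2 was as low as the doxycycline arrays. Withdrawal replicate 2 had the lowest signal of all 6 arrays for 23 of the 46 members (19.6% of all probe sets) and the highest for 0 (22% of all probe sets). Doxycycline replicate 1 was lowest for 9 members (15.8%) and doxycycline replicate 2 for 12 (20.8%), and the only members highest on a doxycycline array were Exosc8 on replicate 1 (13.8%) and Gnl2 on replicate 2 (20.2%). Estradiol replicate 2 had the highest signal for 26 members (21.5% of all probe sets).

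**Figure D1:**
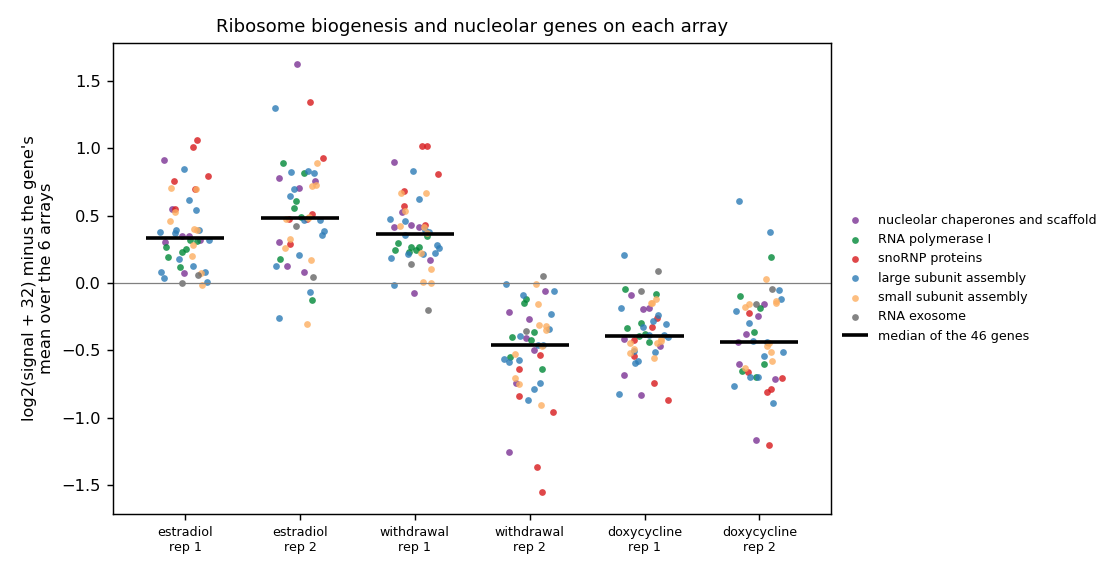
Each point is 1 of the 46 tested genes on 1 array, as its log2(signal + 32) minus its mean over the 6 arrays, coloured by role, and black lines are the medians. The medians of the estradiol arrays (0.33 and 0.48) and of withdrawal replicate 1 (0.36) lie above 0, and those of withdrawal replicate 2 (-0.46) and the doxycycline arrays (-0.39 and -0.44) lie below it.

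Genes of cell division were also high on both estradiol arrays and withdrawal replicate 1. Of the other arrays, only doxycycline replicate 2, whose title names estradiol, set them clearly apart from the nucleolar genes. Their median deviation was -0.56 on withdrawal replicate 2, and -0.375 and -1.33 on the doxycycline arrays. For the members it was -0.46, -0.39 and -0.44. Within replicate 2, where doxycycline replicate 2 is the baseline, withdrawal was higher for 15 of the 16 tested (median 0.68). The same held for 18 of the 46 members (median -0.14). Of 18 listed proliferation genes, 16 were tested, and the summed signals of the 17 with a probe set were 9046 and 9945 on the estradiol arrays, 8589 and 3264 on the withdrawal arrays and 3912 and 1921 on the doxycycline arrays. All 16 were higher with estradiol than with doxycycline, with a median log2 difference of 1.61 (limma called 0, and 14 had an unadjusted p under 0.05). Their part in the levels of the nucleolar genes was not tested. In a bulk sample, a larger share of growing cells and more RNA of these genes per cell cannot be told apart.

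By the treatment entries, the comparison of estradiol with doxycycline sets cells with the oncogenes and IRF-1 active against cells with both off. However, the title of doxycycline replicate 2 also names estradiol, and estradiol replicate 1 was closely like withdrawal replicate 1. Whether IRF-1 was active on these arrays was not tested. This comparison had the largest median difference of the 3 comparisons for the nucleolar genes. In it 45 of the 46 members were higher (50.4% of all probe sets), and the median log2 fold change was 0.82 (0.76 in replicate 1 and 0.94 in replicate 2), against 0.00 over all tested probe sets. For 41 members both estradiol arrays lay above both doxycycline arrays (27% of all probe sets), for Gnl2 both lay below (24.7%), and for Polr1b, Rrp1b, Ddx10 and Exosc8 the groups overlapped. Replicate 1 had 44 members higher (52.3%), replicate 2 had 42 (50%), and 41 were higher in both (33.3%). The difference was at least 2-fold on the log2(signal + 32) scale for 18 members (3.8% of all probe sets).

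With limma over all 7453 probe sets, 0 members passed an adjusted p of 0.05 (0% of all probe sets). The smallest adjusted p was 0.255, while 22 members, all of them higher, had an unadjusted p under 0.05 (8.31% of all probe sets were higher at that level). With the replicate number as a block, limma also called 0 members, and 25 had an unadjusted p under 0.05 (1219 of all 7453 probe sets). The 22 became 14 without doxycycline replicate 1 (10.2% of all probe sets in either direction), 9 without doxycycline replicate 2 (6.4%) and 5 without estradiol replicate 2 (4.08%). The call depended on the withdrawal arrays, which share in the estimate of the spread. When either one was left out, Nhp2, Nop56, Bop1 and Pa2g4 passed, with adjusted p from 0.0281 to 0.0496 in limma, as did 1.76% to 1.78% of all probe sets. When both were left out, an alternative chosen after seeing the data, the same 4 genes passed, with adjusted p from 0.0286 to 0.0496 (1.77% of all probe sets).

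**Figure D2:**
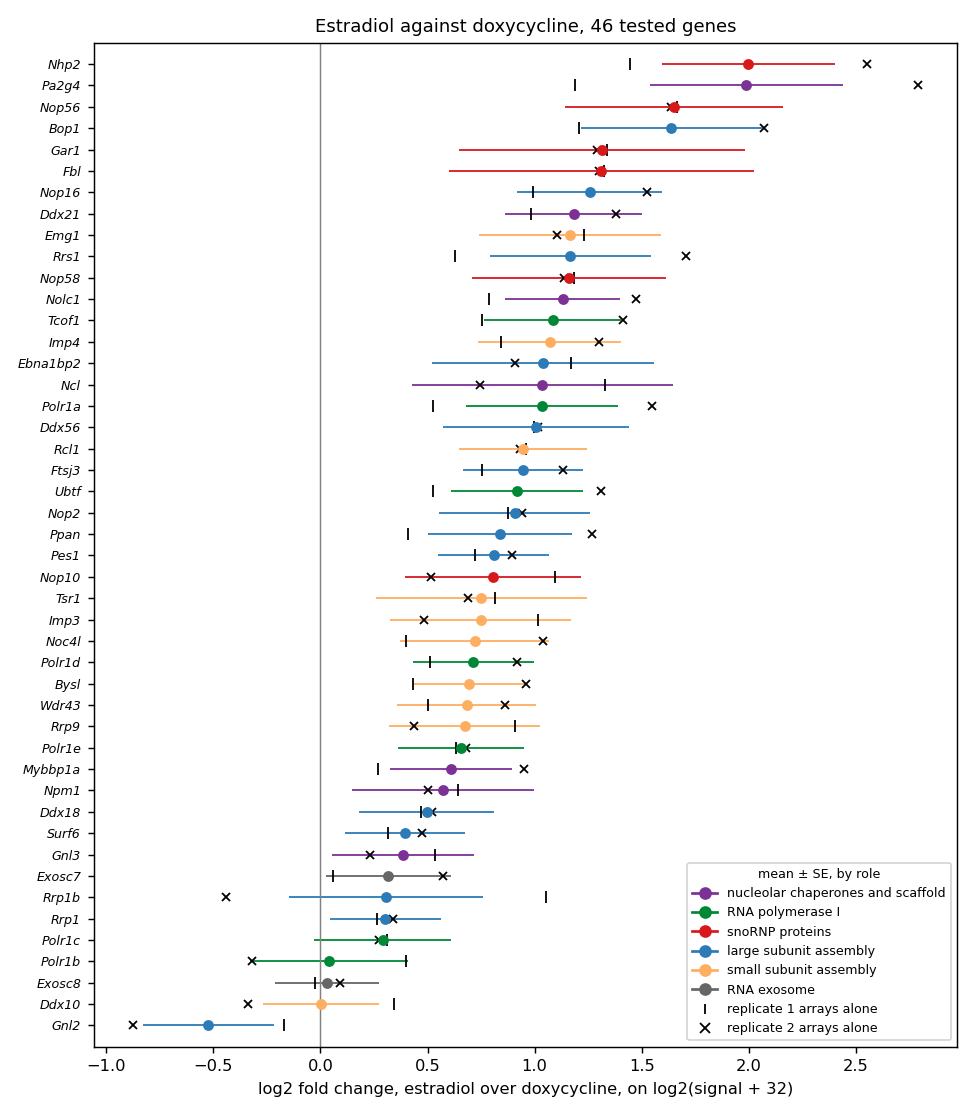
Points give the log2 fold change of estradiol over doxycycline on log2(signal + 32) for the 46 tested genes, coloured by role, with bars of 1 standard error from limma, and black marks give the value within each replicate number. Values run from 2.00 for Nhp2 to -0.52 for Gnl2, and 45 of the 46 points lie above 0.

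Proteins that shape the nucleolus and chaperone its cargo had a median log2 fold change of 1.04 between estradiol and doxycycline, and all 7 were higher on both estradiol arrays. Ncl, nucleolin, an abundant RNA-binding protein of the nucleolus, had signals of 4203 and 2746 on the estradiol arrays, 4159 and 912 on the withdrawal arrays and 1655 and 1628 on the doxycycline arrays. The doxycycline arrays were close to each other, and withdrawal replicate 2 was the lowest array of all. The log2 fold change of Ncl for estradiol over doxycycline was 1.04 (SE 0.61, limma adjusted p = 0.468). Npm1, nucleophosmin, a histone and ribosome chaperone, had 3989 and 2955 with estradiol, 3929 and 1606 after withdrawal and 2547 and 2077 with doxycycline. Here too withdrawal replicate 2 was lowest, and estradiol stood above doxycycline by 0.57 (SE 0.43, limma adjusted p = 0.582).

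Ddx21, Pa2g4 and Nolc1 had their lowest signals on a doxycycline array. Ddx21, an RNA helicase that links transcription and processing of ribosomal RNA, had 414 and 588 with estradiol, 451 and 280.5 after withdrawal and 194 and 206 with doxycycline. Every array without doxycycline was above both doxycycline arrays, and the log2 fold change was 1.18 for estradiol over doxycycline (SE 0.32, limma adjusted p = 0.255). Pa2g4, a growth-regulating protein that binds ribosome precursors, had 151 and 410.4 with estradiol, 161 and 75.7 after withdrawal and 48.4 and 32 with doxycycline. Its log2 fold change was 1.99 (SE 0.45, limma adjusted p = 0.255), made of 1.19 in replicate 1 and 2.79 in replicate 2. Nolc1, which escorts snoRNPs, differed by 1.13. Mybbp1a differed by 0.61 and Gnl3, nucleostemin, by 0.38, and neither passed the test. Gnl3 had its lowest signal on withdrawal replicate 2. Mybbp1a read 87.4 there and 89 on doxycycline replicate 2, nearly the same. Its other tested probe set (log2 fold change 0.96) read 101.1 and 45.2 on these arrays and was lowest on doxycycline replicate 2.

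RNA polymerase I and its factors had a median of 0.71 between estradiol and doxycycline, with 6 of 7 genes higher on both estradiol arrays. Ubtf, the factor that opens the ribosomal RNA genes for transcription, had signals of 611 and 806 with estradiol, 629 and 474 after withdrawal and 415 and 306 with doxycycline. Tcof1, treacle, a scaffold for the polymerase, had 339 and 491 with estradiol, 325 and 199 after withdrawal and 188 and 164 with doxycycline. For both genes all arrays without doxycycline stood above both arrays with it, and the log2 fold changes of estradiol over doxycycline were 0.92 (SE 0.31, limma adjusted p = 0.286) and 1.08 (SE 0.32, limma adjusted p = 0.257).

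The polymerase subunits themselves were uneven. Polr1a, the largest catalytic subunit, was higher with estradiol than with doxycycline by 1.04, Polr1d by 0.71 and Polr1e by 0.66. Polr1c, shared with RNA polymerase III, had 362 and 339 with estradiol, 358 and 192 after withdrawal and 286 and 275 with doxycycline, a log2 fold change of 0.29 for estradiol over doxycycline (SE 0.32, limma adjusted p = 0.716). Its other tested probe set went the opposite way (-0.61), so no direction is given for Polr1c. The counts of higher members above include it by its brighter probe set alone. Polr1b, the other catalytic subunit, had 252 and 177 with estradiol, 258 and 114.5 after withdrawal and 183 and 228 with doxycycline. These groups overlapped, and the log2 fold change of 0.04 (SE 0.37, limma adjusted p = 0.974) had opposite signs in the replicates.

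**Figure D3:**
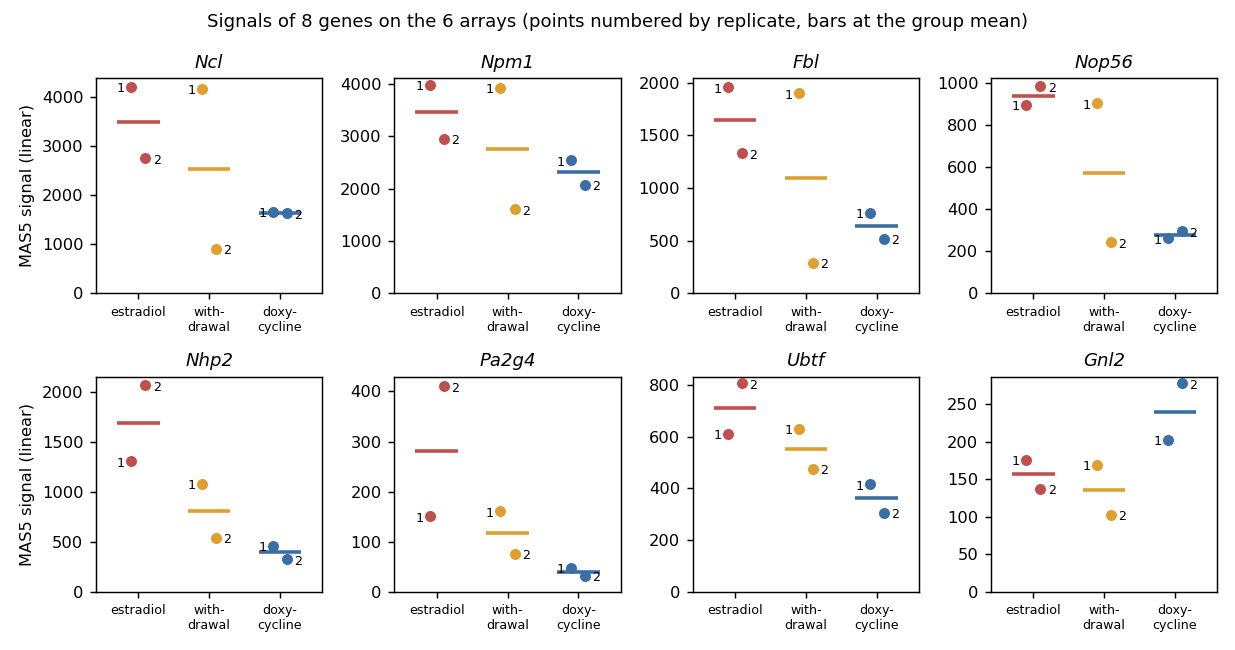
Each panel shows the MAS5 signal of 1 gene on a linear axis that starts at 0, with points numbered by replicate and bars at the group mean, for the estradiol, withdrawal and doxycycline groups. In 7 panels both estradiol arrays lie above both doxycycline arrays, and in the panel of Gnl2 both lie below. Withdrawal replicate 1 lies within 0.28 of estradiol replicate 1 on the log2(signal + 32) scale in all 8 panels.

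Of the 6 roles, the snoRNP proteins had the highest median between estradiol and doxycycline, 1.31, and all 6 were higher on both estradiol arrays. Fbl, fibrillarin, the methyltransferase of box C/D snoRNPs, had signals of 1958 and 1329 with estradiol, 1901 and 292 after withdrawal and 764 and 519.9 with doxycycline. The log2 fold change was 1.31 (SE 0.71, limma adjusted p = 0.435), and the withdrawal arrays lay farther apart than any other pair of replicates of this gene. Nop56, a core protein of the same particles, had 894 and 983 with estradiol, 903 and 243 after withdrawal and 260.5 and 295 with doxycycline. Within the estradiol group and within the doxycycline group the replicates were close, and the difference of 1.65 (SE 0.51, limma adjusted p = 0.267) was nearly the same in both replicate numbers. Nop58, the partner of Nop56, differed by 1.16.

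Nhp2, a core protein of box H/ACA snoRNPs and of telomerase, had 1306 and 2064 with estradiol, 1081 and 538 after withdrawal and 459.6 and 326 with doxycycline. Its 3 groups did not overlap, and it was the only member with an unadjusted p under 0.05 in every comparison. Its log2 fold change of 2.00 for estradiol over doxycycline (SE 0.40, limma adjusted p = 0.255) was the largest among the members. Gar1, of the same particle, had 1418 and 971 with estradiol, 1425 and 246 after withdrawal and 542 and 378 with doxycycline. Nop10, another H/ACA protein, had 2417 and 2017 with estradiol, 2455 and 1041 after withdrawal and 1115 and 1401 with doxycycline. Unlike Nhp2, both had their lowest signal on withdrawal replicate 2, and their log2 fold changes of estradiol over doxycycline were 1.31 and 0.80 (limma adjusted p = 0.410 for each).

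Factors of large subunit assembly had a median of 0.87 between estradiol and doxycycline, and 12 of 14 were higher on both estradiol arrays. Bop1, which forms a complex with Pes1 and Wdr12, had signals of 258 and 519 with estradiol, 279 and 119 after withdrawal and 93.9 and 99.4 with doxycycline. Even its lowest array without doxycycline was above both arrays with it, and the log2 fold change was 1.64 (SE 0.42, limma adjusted p = 0.255). Pes1, its partner, differed by 0.81. Nop2 had 451 and 554 with estradiol, 448 and 219.5 after withdrawal and 232 and 273 with doxycycline, a log2 fold change of 0.91 (SE 0.35, limma adjusted p = 0.327). Ddx56, a nucleolar helicase, had 607 and 547 with estradiol, 613 and 210.4 after withdrawal and 288 and 254.5 with doxycycline, a log2 fold change of 1.01 (SE 0.43, limma adjusted p = 0.353). For Nop2 and Ddx56, withdrawal replicate 2 was again the lowest array.

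Nop16 (1.26), Rrs1 (1.17), Ebna1bp2 (1.04), Ftsj3 (0.95) and Ppan (0.84), all factors of early large subunit precursors, were higher on both estradiol arrays, as were Ddx18 (0.50) and Surf6 (0.40) with smaller differences. Rrp1, a processing factor, had 445 and 461 with estradiol, 479 and 417 after withdrawal and 364 and 358 with doxycycline. It hardly varied, with a log2 fold change of 0.30 (SE 0.26, limma adjusted p = 0.635). Its relative Rrp1b overlapped between the groups (0.31), with a signal of 88.5 on doxycycline replicate 1 and 191 on doxycycline replicate 2.

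Gnl2, a GTPase that takes part in the release and export of large subunit precursors, was the exception of the list. It had signals of 176 and 137 with estradiol, 169 and 103 after withdrawal and 202 and 278 with doxycycline. Both doxycycline arrays were above all others, and the log2 fold change was -0.52 for estradiol over doxycycline (SE 0.31, limma adjusted p = 0.467) and -0.71 for withdrawal over doxycycline (SE 0.31, limma adjusted p = 0.925). Neither difference passed the test.

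Factors of small subunit assembly had a median of 0.73 between estradiol and doxycycline, and 9 of 10 were higher on both estradiol arrays. Imp3, a protein of the U3 snoRNP, had signals of 1513 and 1313 with estradiol, 1524 and 605 after withdrawal and 731 and 931 with doxycycline. Tsr1, which sits on late small subunit precursors, had 611 and 416 with estradiol, 599 and 179.8 after withdrawal and 334 and 246 with doxycycline. Emg1, a methyltransferase of small subunit ribosomal RNA, had 454 and 381 with estradiol, 441 and 151 after withdrawal and 175 and 160.1 with doxycycline. All 3 followed the pattern of Ncl, with withdrawal replicate 2 lowest, and differed between estradiol and doxycycline by 0.75, 0.75 and 1.17 (limma adjusted p = 0.451, 0.524 and 0.305).

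Imp4 (1.07), Rcl1 (0.95), Noc4l (0.72), Bysl (0.69), Wdr43 (0.68) and Rrp9 (0.67) were also higher on both estradiol arrays. Ddx10, a helicase of the small subunit pathway, had dim signals of 61.5 and 34 with estradiol, 63.2 and 49.2 after withdrawal and 41.6 and 51.4 with doxycycline. The groups overlapped, with a log2 fold change of 0.00 for estradiol over doxycycline (SE 0.27, limma adjusted p = 0.998). The 6 tested members with an E-box in the promoter differed between estradiol and doxycycline by 0.61 (Mybbp1a) to 1.07 (Imp4), which spans the median of all members.

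Subunits of the RNA exosome, which trims ribosomal RNA ends and degrades RNA, had the smallest median of the 6 roles, 0.17. Only 2 of the 4 listed were tested. Exosc7 had signals of 174 and 244 with estradiol, 195 and 129 after withdrawal and 166 and 153 with doxycycline, a log2 fold change of 0.32 for estradiol over doxycycline (SE 0.29, limma adjusted p = 0.657). Exosc8 had 64.6 and 63.6 with estradiol, 48.4 and 64 after withdrawal and 66.4 and 57.8 with doxycycline, a log2 fold change of 0.03 (SE 0.24, limma adjusted p = 0.970). The groups of Exosc8 overlapped, and those of Exosc7 lay close together. Exosome genes of the wider list described below differed by 1.10 (Exosc10), 0.79 (Exosc5) and 0.13 (Exosc4), so the median of this role does not stand for the whole exosome.

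The comparison of withdrawal with doxycycline asks what the oncogenes did before IRF-1 was activated, and for the nucleolar genes its arrays disagreed. In it 40 of the 46 members were higher (51.8% of all probe sets), with a median log2 fold change of 0.29, against 0.01 over all probe sets. Within replicate 1 the median was 0.68 and 44 members were higher, and within replicate 2 it was -0.14 and 18 were higher (52.1% of all probe sets). Without withdrawal replicate 1 the median was -0.08 and 19 members were higher, and without withdrawal replicate 2 it was 0.76 and 44 were higher. Limma called 0 members (0% of all probe sets), with adjusted p of 0.925 or more. An unadjusted p under 0.05 was found for Nolc1, Ddx21, Gnl2 and Nhp2, 4 members in all (4.37% of all probe sets), of which 3 were higher (2.07%). With the replicate block 0 were called and 2 had an unadjusted p under 0.05 (435 of all 7453 probe sets). The 4 became 26 without withdrawal replicate 2 (12.2% of all probe sets), 2 without either estradiol array and 0 without either doxycycline array.

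Both withdrawal arrays were above both doxycycline arrays for 13 members (16.9% of all probe sets), or 44 without withdrawal replicate 2 (37.4%), and below them for Gnl2 (15%). These 13 were Nolc1, Ddx21 and Pa2g4 among the nucleolar scaffold genes, Polr1d, Ubtf and Tcof1 of RNA polymerase I, Nhp2 of the snoRNPs, Bop1, Pes1, Nop16, Rrp1 and Ftsj3 of the large subunit and Rcl1 of the small subunit. On its other tested probe set Nop16 overlapped, with 66.3 on withdrawal replicate 2 and 90.1 and 69.3 with doxycycline. Pa2g4 and Nhp2 had the largest log2 fold changes of withdrawal over doxycycline, 1.01 (SE 0.45) and 0.93 (SE 0.40), each with a limma adjusted p of 0.925. At the other end stood Gnl2, given above, and Polr1b with -0.20 (SE 0.37, limma adjusted p = 0.963), which was above 0 without withdrawal replicate 2 (0.29).

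Taken alone, withdrawal replicate 1 was above both doxycycline arrays for 44 members (37.4% of all probe sets) and below both for Gnl2 and Exosc8 (36.7%). Withdrawal replicate 2 was above both for 13 (39.1%), between them for 10 and below both for 23 (34.7%). Its low members included 5 of the 6 snoRNP proteins, all but Nhp2, and the median deviation of the snoRNP genes on this array was -0.90, against -0.48 and -0.75 on the doxycycline arrays. The summed signal of the 17 proliferation genes there, 3264, lay between the values of the doxycycline arrays. Myc gave signals of 31.9 and 28.1 on the estradiol arrays, 25.7 and 118.5 after withdrawal and 62.3 and 49.6 with doxycycline. It was highest on withdrawal replicate 2, the 1 array where 23 of the 46 nucleolar genes were lowest. On the estradiol arrays and withdrawal replicate 1 it was dim, near the mean signal of 29 below which probe sets were left out. Whether the Myc probe set reads the introduced c-myc was not tested, nor was a relation of Myc to the nucleolar genes.

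**Figure D4:**
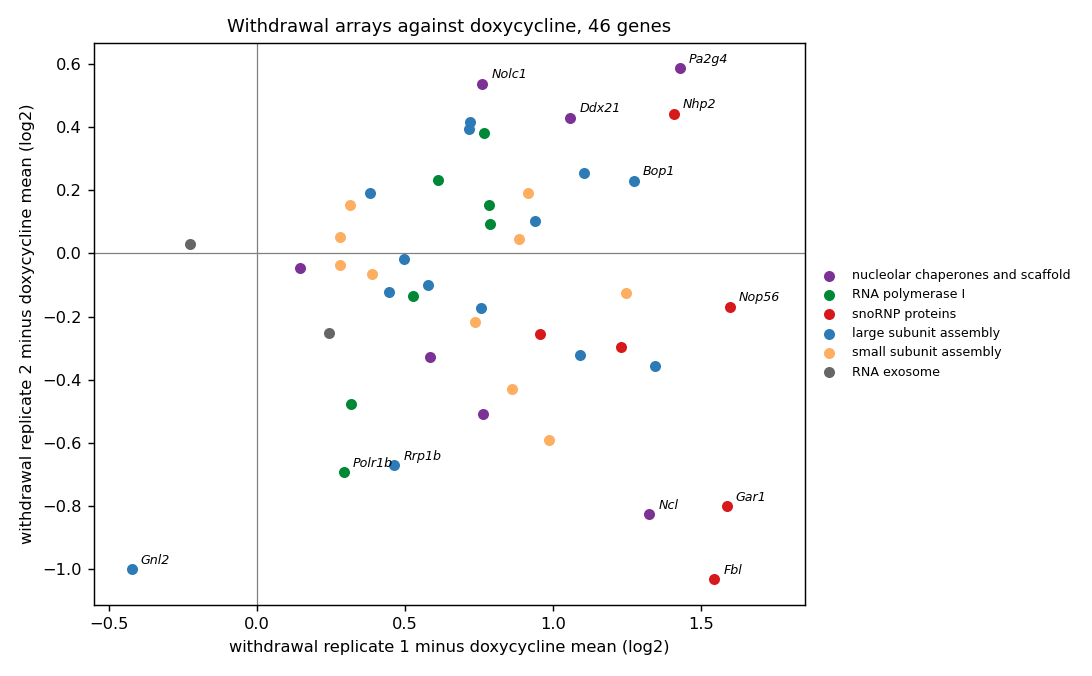
Each point is 1 of the 46 tested genes, with the log2 difference of withdrawal replicate 1 from the doxycycline mean on the horizontal axis and that of withdrawal replicate 2 on the vertical axis, coloured by role. Most points lie right of 0 but spread above and below it, with Pa2g4, Nhp2, Nolc1 and Ddx21 at the top and Fbl, Gnl2, Ncl and Gar1 at the bottom.

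The comparison of estradiol with withdrawal asks what active IRF-1 did while the oncogenes were on, and its result also rested on 1 array. Of the 46 members, 45 were higher with estradiol (51% of all probe sets), with a median log2 fold change of 0.50, against 0.01 over all probe sets. Within replicate 1, the pair of closely alike arrays, the median was -0.01 and 22 members were higher (51.6% of all probe sets), while within replicate 2 it was 0.98 and 44 were higher (50.6%). Without withdrawal replicate 2 the median was 0.06, and without withdrawal replicate 1 it was 0.91. Limma called 0 members (0% of all probe sets), with adjusted p of 1.00. Nhp2 alone had an unadjusted p under 0.05 (0.698% of all probe sets), as did 1 member with the replicate block (64 of all 7453 probe sets). That count was 28 without withdrawal replicate 1 (16.2% of all probe sets), 6 without estradiol replicate 1 (2%) and 0 without either of the other arrays of these groups.

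Both estradiol arrays were above both withdrawal arrays for 10 members (11.6% of all probe sets), namely Nolc1, Mybbp1a, Polr1e, Tcof1, Nhp2, Pes1, Nop2, Rrs1, Imp4 and Bysl. Both were below for 0 members (10.3%). On its other tested probe set Mybbp1a overlapped, with 84.1 on estradiol replicate 1 and 101.1 on withdrawal replicate 2. With 1 array left out, fewer arrays have to be separate, and the 10 became 44 without withdrawal replicate 1 (38.5% of all probe sets), 26 without estradiol replicate 1 (29.3%) and 22 without estradiol replicate 2 (28.3%). Nhp2 had the largest difference, 1.07 (SE 0.40), followed by Fbl with 1.06 (SE 0.71), which was -0.23 without withdrawal replicate 2. The smallest were Rrp1 with 0.02 (SE 0.26) and Ddx10 with -0.16 (SE 0.27), and the limma adjusted p of all 4 was 1.00. By role the medians were 0.93 for snoRNP proteins, 0.53 for the small subunit, 0.48 for the scaffold and for the large subunit, 0.37 for RNA polymerase I and 0.23 for the exosome.

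The estradiol arrays themselves differed by gene. Estradiol replicate 2 was higher than estradiol replicate 1 for 27 members, from all 6 roles, and lower for 19 (50.9% of all probe sets were higher). Pa2g4 had the largest such gap, 1.27 on the log2 scale, and Ebna1bp2 the largest in the other direction. The genes that were lower on estradiol replicate 2 included Ncl, Npm1, Fbl, Gar1, Nop10, Imp3 and Tsr1, whose signals were lower on withdrawal replicate 2 than on any other array.

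A wider list of 117 other genes of the pathway, among them further exosome, processome and polymerase genes, had 60 with a probe set and 56 tested. Of these, 45 were higher with estradiol than with doxycycline (50.4% of all probe sets), with a median of 0.40. Limma called 0, while 10 were higher at an unadjusted p under 0.05 (8.31% of all probe sets). With the replicate block, 11 in either direction had an unadjusted p under 0.05 (1219 of all 7453 probe sets). For withdrawal over doxycycline, 41 were higher (51.8% of all probe sets), with a median of 0.21, or -0.14 without withdrawal replicate 1. For estradiol over withdrawal, 49 were higher (51%), with a median of 0.27, or -0.01 without withdrawal replicate 2. Limma called 0 in either comparison. In these 2 comparisons, 1 (4.37% of all probe sets) and 0 (0.698%) had an unadjusted p under 0.05. With the replicate block these were 2 and 0 (435 and 64 of all 7453 probe sets).

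The 4 with the smallest p for estradiol over doxycycline were Utp4, Exosc10, Brix1 and Nifk. Utp4, of the small subunit processome, had signals of 409 and 595 with estradiol, 407 and 245 after withdrawal and 202 and 191 with doxycycline (log2 fold change 1.20, SE 0.33, limma adjusted p = 0.255). Exosc10, the catalytic exosome subunit of the nucleolus, had 69.3 and 80.5 with estradiol, 55.1 and 49.5 after withdrawal and 30.1 and 7.7 with doxycycline (1.10, SE 0.28, limma adjusted p = 0.255). Brix1, of large subunit assembly, and Nifk, which binds the proliferation marker Ki-67, differed by 0.93 and 0.81. All 4 had both estradiol arrays and both withdrawal arrays above both doxycycline arrays. For estradiol this goes with how the 4 were picked, and the withdrawal comparison uses the same doxycycline arrays. Over the 56 tested genes it held for 37 with estradiol (27% of all probe sets) and 16 after withdrawal (16.9%).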

How the data were processed

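RNA of 6 samples was labelled as biotin cRNA and read on 1-colour Affymetrix arrays, 1 per sample. Per the submitters' processing notes, the deposited values are MAS5 signals, an intensity per probe set on a linear scale (version, settings and genome build: not given in the sources used here). After leaving out 2% at each end, the mean of the authors' deposited intensities was 150.09 to 150.1 on every array. Gene names came from the platform annotation: of 12422 probe sets beside 66 controls, 10833 had 1 symbol, 396 several and 1193 none.

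Arrays were scaled to that common mean and turned into log2(signal + 32), which understates changes of dim probe sets. The lowest 40% of probe sets by mean were left out, and the other 7453 entered a linear model in limma 3.58.1 under R 4.3.3 (1 mean per group over all 6 arrays, intensity trend, 3 residual degrees of freedom, two-sided, Benjamini-Hochberg over all probe sets, threshold 0.05). The model was tested on simulated data. The smallest change added there was about that of Nhp2, the largest of the members, so smaller changes were not covered. Nothing in the labels describes the replicates as separate cultures. The p-values therefore reflect the spread among these 6 arrays alone, possibly a technical one, and 2 arrays per group limit the precision.

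Members, roles, other lists and rules were chosen with earlier results of these data known. Signals on every array are given for the 3 members with the highest mean signal in each role, for members that passed a test and for the 2 most positive and 2 most negative members of each comparison, and for up to 4 other pathway genes. Nop56, Bop1, Gar1, Nolc1 and Myc were singled out, or their values given, after their values were seen. By the labels, replicate 1 was extracted with RNeasy and replicate 2 with TRIzol, so the replicate number goes with the extraction in every group. Deviations from the group means correlated at 0.449 between estradiol and withdrawal, whose first replicates were closely alike. They hardly correlated between estradiol and doxycycline (-0.0284) or between withdrawal and doxycycline (-0.0073). Protein sequences were not used here.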

Additional observations from a re-analysis of the deposited data

How the results depend on the processing

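Other pseudocounts (16, 64), filters (none, or the lowest 60% left out), quantile normalization, limma without the trend, the mean over a gene's probe sets and the replicate block left the count of called members at 0 in all 3 comparisons. Members at an unadjusted p under 0.05 for withdrawal over doxycycline numbered 1 with pseudocount 64 or no filter and 2 with the stricter filter, quantile normalization or the replicate block, against 4, and for estradiol over withdrawal 2 without a filter, against 1. The block changed no call. For estradiol over doxycycline, the median of the other pathway genes was 0.48 with pseudocount 16, Ddx10 was -0.0013 there, and Polr1c was -0.16 as a mean over its probe sets; the cause was not tested.

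Leaving out 1 array at a time moved most results of the withdrawal group. For withdrawal over doxycycline, the members' median ran from -0.083 to 0.76, the number higher from 19 to 44, those with both arrays higher from 13 to 44 and those at an unadjusted p under 0.05 from 0 to 26, the median of the other pathway genes from -0.14 to 0.43 and Polr1b from -0.69 to 0.29. For estradiol over withdrawal, the number higher ran from 26 to 45, those with both arrays higher from 10 to 44, those at an unadjusted p under 0.05 from 0 to 28, the other pathway genes' median from -0.013 to 0.54, Fbl from -0.23 to 2.34, Ddx10 from -0.41 to 0.089 and Rrp1 from -0.078 to 0.11. For estradiol over doxycycline, the members' median stayed between 0.78 and 0.93 and 42 to 45 members were higher, with 0 to 4 called and 5 to 32 at an unadjusted p under 0.05; Polr1b (-0.18 to 0.26), Ddx10 (-0.25 to 0.26) and Exosc8 (-0.034 to 0.098) changed sign. Called members also numbered 4 without both withdrawal arrays. Without doxycycline replicate 2, whose title names estradiol, the members' median was 0.85 for estradiol over doxycycline and 0.32 for withdrawal over doxycycline. Without estradiol replicate 1, which was closely like withdrawal replicate 1, it was 0.93 for estradiol over doxycycline.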
